A study of Mus musculus with 6 samples.

Results

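Macrophage and monocyte genes were read out of a table of kidney gene expression as 34 listed genes, chosen by name from common markers of these cells. All 34 were found once each among the 33679 genes of the table. They were sorted by role into 8 genes of lineage and identity, 5 of resident macrophages and 10 of scavenging and lysosomal digestion. Another 4 were Fc receptors and signalling adaptors, and 7 were genes of monocytes and inflammation. The comparison was between 2 groups of mouse kidney, from Cd248 knockout and from wild type animals, and both had undergone unilateral ureteral obstruction, the tying of one ureter, after which the kidney scars. Cd248 encodes endosialin, a surface glycoprotein of fibroblasts and pericytes. The labels give no strain, age, sex or time after surgery, and they do not say whether the gene was deleted in all cells. Values of 1 knockout library and 3 wild type libraries were used, out of 3 and 3 named in the labels. Pooled RNA is named in the protocols and separate animals are not, so the spread between libraries may be technical.

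Macrophages are phagocytes that live in every tissue and are joined, after injury, by monocytes from the blood. Resident cells depend on the growth factor receptor CSF1R and in the kidney carry the fractalkine receptor CX3CR1, whereas incoming inflammatory monocytes follow the chemokine receptor CCR2. In the obstructed kidney both kinds gather between the tubules, take up debris through scavenger and Fc receptors, and are known for their ties to scarring.

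The unit of the table is FPKM, fragments scaled to transcript length and library size, so levels can be set side by side between genes. Read depth is unknown, because the table holds no counts. Between 14535 and 14820 genes reached 1 FPKM in a library, and FPKM summed to between 267394 and 304426. Levels are given for the knockout library first and then, after "against", for wild type replicates 1, 2 and 3. Cd248 itself was listed at 0 against 9.03, 9.57 and 8.78 FPKM, the direction that its labels give. Immunoglobulin genes held 5.99% of the FPKM total of the knockout library and between 0.113% and 0.202% of the wild type totals. In whole tissue, fewer cells of a type and less RNA per cell cannot be told apart.

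As a set, the macrophage and monocyte genes of the knockout library lay among those of the wild type libraries. Tests were run on log2(FPKM + 1) with limma, and a difference is the knockout value minus the wild type mean on that scale. They covered the 16871 genes that averaged 0.5 FPKM or more, 32 of the 34 listed genes among them. Timd4 and Marco fell under that level. Of the 32, 0 were called by limma (adjusted p under 0.05), where 0.723% of all tested genes passed, and 0 reached an unadjusted p under 0.05, where 10.8% of all tested genes did. The knockout value lay inside the wild type range for 24 of 32 genes, against 40.8% of all tested genes. It lay below every wild type library for 5, against 31.2% of all tested genes, and above every one for 3, against 28%. The wild type libraries scattered more in these genes, with a median SD of 0.24 on the log2 scale against 0.11 for all tested genes. A wider scatter puts more values inside the range and fewer past a test, and its part in these counts was not tested. The median difference of the 32 genes was -0.06 on the log2 scale, against -0.01 for all tested genes, and 19 of the 32 differed by less than 0.2 in either direction.

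**Figure D1:**
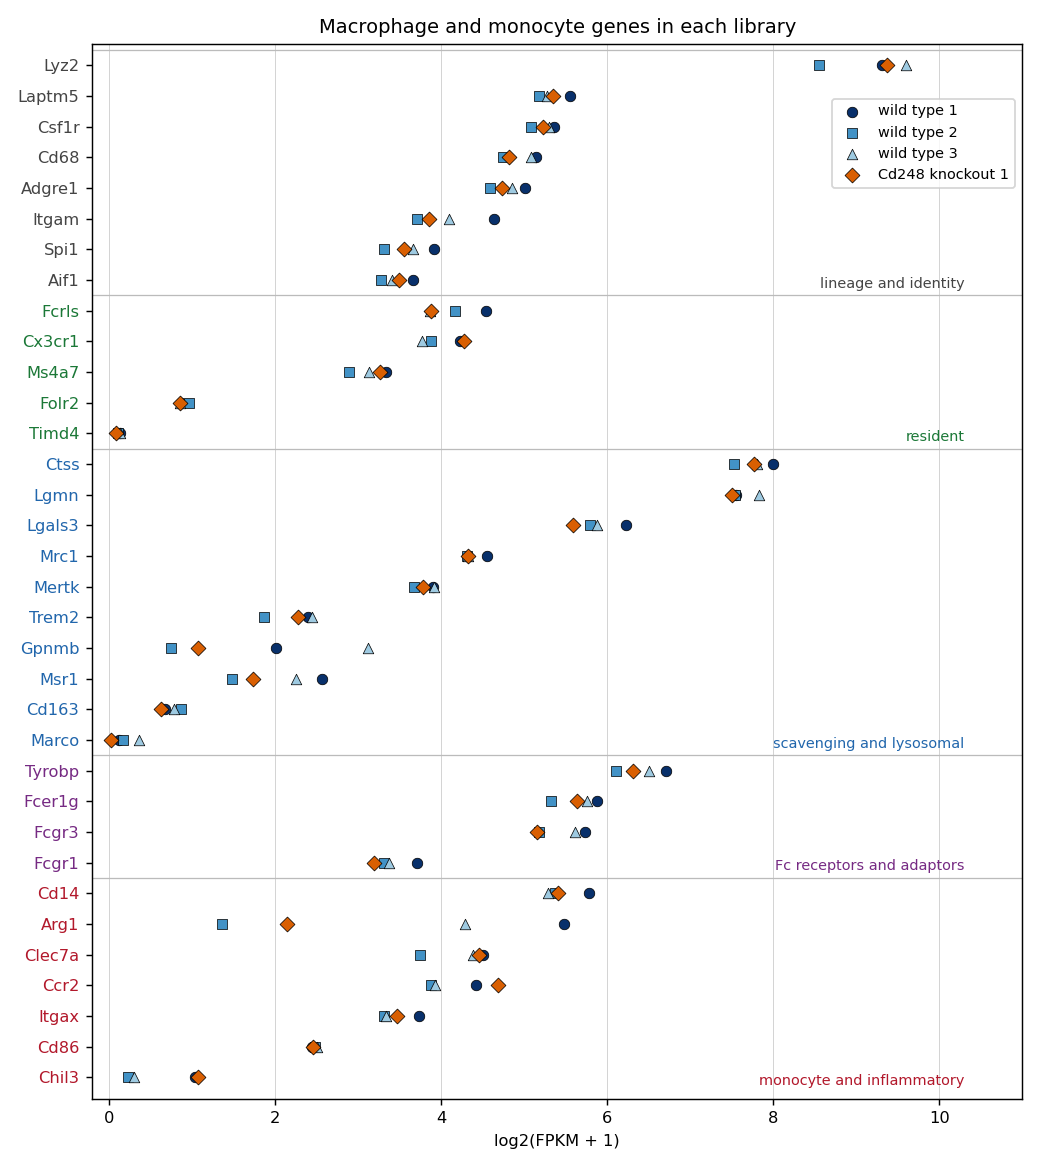
Level of each of the 34 genes as log2(FPKM + 1) in the knockout library (diamonds) and the 3 wild type libraries (circles, squares and triangles), grouped by role. For 24 of the 32 tested genes the diamond lies inside the wild type range, and Arg1 and Gpnmb show the widest scatter among wild type libraries.

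The 8 genes of lineage and identity all had a knockout value inside the wild type range. Adgre1, which encodes the macrophage antigen F4/80 (ENSMUSG00000004730; mm10, chromosome 17, 57358691 to 57483527, plus strand), stood at 25.6 FPKM against 31.2, 23.1 and 28.0 FPKM. Only wild type replicate 2 was lower than the knockout library. The difference was -0.08 on the log2 scale, with a 95% interval from -0.58 to 0.41 (limma adjusted p = 0.892). Csf1r, the receptor that keeps macrophages alive, was at 36.4 FPKM against 40.2, 32.9 and 38.3 FPKM, with a difference of -0.02 (interval -0.40 to 0.36). It shares 873 exon bases with Hmgxb3 on the opposite strand, at 2.62 to 2.85 FPKM in wild type. The labels do not say whether counting used the strand, so reads of the shared stretch are uncertain.

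Spi1 encodes PU.1, the transcription factor that sets the myeloid lineage, and was at 10.7 FPKM against 14.1, 8.96 and 11.7 FPKM. Cd68, a lysosomal membrane protein, was at 27.3 FPKM against 34.3, 25.9 and 33.0 FPKM. In both genes the knockout library again stood between wild type replicate 2 and the other wild type libraries. Aif1, the calcium-binding protein IBA1, was at 10.2 FPKM against 11.7, 8.69 and 9.60 FPKM, and Laptm5, a lysosomal protein of blood cells, at 39.7 FPKM against 46.0, 35.2 and 37.6 FPKM. They differed by 0.04 and 0.01, and their sign changed with the scaling of the libraries.

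Lyz2, the lysozyme of myeloid cells, was the most abundant of the 34 genes, at 662 FPKM against 634, 373 and 775 FPKM. The wild type libraries thus spanned a 2.08-fold range. Its close copy Lyz1 was listed at 1.80 to 4.15 FPKM over the 4 libraries, and reads could have been divided between them. Itgam, the integrin chain CD11b of monocytes, macrophages and neutrophils, was at 13.5 FPKM against 24.0, 12.1 and 16.1 FPKM, a difference of -0.30 (interval -1.31 to 0.72). Wild type replicate 1 stood alone as the highest, and the difference was -0.05 when it was left out and -0.52 when replicate 2 was. Gm49368, a gene model on the same strand that shares 3450 exon bases with Itgam, stood at 0.01 FPKM against 0.55, 0.03 and 0.02 FPKM, so the split of reads between the models is uncertain.

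Among the resident genes, Cx3cr1 was the 1 of 4 tested that lay above every wild type library, a share near the 28% of all tested genes. Cx3cr1 (chromosome 9, 119901616 to 120069879, minus strand) was at 18.4 FPKM against 17.8, 13.7 and 12.7 FPKM. The knockout value and that of wild type replicate 1 were close together and the remaining 2 libraries were lower. The difference was 0.31 (SE 0.20, limma adjusted p = 0.644), and it ranged from 0.22 to 0.45 as each wild type library was left out in turn. An antisense gene, Gm33858, shares 78 exon bases with it and stood at 1.46 FPKM against 0.61, 0.48 and 0.57 FPKM, also highest in the knockout library. Without strand, reads of the gene pair cannot be told apart in that stretch.

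Fcrls, an Fc receptor-like gene known from microglia and resident macrophages, was at 13.8 FPKM against 22.3, 17.0 and 13.6 FPKM, a difference of -0.31 (interval -1.05 to 0.43) that was -0.14 with replicate 1 left out. Here wild type replicate 3, not replicate 2, was the lowest. Ms4a7, a tetraspanning membrane protein of mature macrophages, was at 8.64 FPKM against 9.09, 6.40 and 7.81 FPKM. Folr2, a folate receptor of resident macrophages, was low throughout, at 0.82 FPKM against 0.83, 0.96 and 0.82 FPKM, and overlaps the antisense gene Gm10602, at 2.04 FPKM against 1.09, 1.44 and 1.37 FPKM. Timd4, which binds phosphatidylserine on dying cells, was at 0.06 to 0.10 FPKM in the 4 libraries and was not tested.

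The scavenging and lysosomal genes had negative differences in 8 of 9 tested cases, with a median of -0.13, and 3 of the 9 lay below every wild type library, a share near the 31.2% of all tested genes. Lgals3 (galectin-3), a lectin of phagocytes that injured tubule cells also make, was at 47.2 FPKM against 73.7, 54.6 and 57.6 FPKM. All wild type libraries were higher, and the difference was -0.38 (SE 0.20, interval -0.90 to 0.15, limma adjusted p = 0.575). With replicate 1 left out it was -0.25. The 7 injured tubule markers had a median difference of -0.29 and a summed level of 592 FPKM against 502 to 738 FPKM. Their part in the level of Lgals3 was not tested. Lgmn, a lysosomal endopeptidase abundant in kidney tubules as well, was at 181 FPKM against 186, 185 and 226 FPKM. Its knockout value fell short of wild type replicates 1 and 2 by a margin that was small beside the gap from replicate 2 to replicate 3. Cd163, the hemoglobin scavenger receptor, was at 0.55 FPKM against 0.60, 0.83 and 0.73 FPKM, near the limit of the filter.

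Mrc1 and Mertk differed little from wild type. Mrc1, the mannose receptor (chromosome 2, 14229392 to 14332057, plus strand), was at 19.1 FPKM against 22.6, 19.0 and 19.0 FPKM, a difference of -0.07 (interval -0.43 to 0.28). Mertk, which takes up apoptotic cells, was at 12.8 FPKM against 14.0, 11.8 and 14.2 FPKM, a difference of -0.05 (interval -0.40 to 0.31). Both intervals lay between -0.5 and 0.5 on the log2 scale. Axl and Tyro3, the sister receptors of Mertk, which are not on the list and are named after their values were seen, lay below every wild type library, at 40.7 FPKM against 56.5, 54.9 and 51.5 FPKM and at 1.43 FPKM against 2.51, 2.41 and 1.93 FPKM. Ctss, the elastin-degrading cathepsin S, was at 218 FPKM against 255, 184 and 223 FPKM, with a difference that rounded to -0.00.

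The lipid-associated genes differed in their scatter. Trem2, a lipid receptor, was at 3.87 FPKM against 4.29, 2.66 and 4.46 FPKM, a difference of 0.04 (interval -0.68 to 0.77). Gpnmb, a glycoprotein of lipid-laden phagocytes, was at 1.10 FPKM against 3.03, 0.68 and 7.67 FPKM, so that wild type libraries alone spanned an 11.3-fold range. Its difference of -0.89 had an interval from -3.41 to 1.64, and it was -1.49 with replicate 2 left out and -0.31 with replicate 3 left out. Msr1, the class A scavenger receptor, was at 2.34 FPKM against 4.93, 1.80 and 3.78 FPKM. In Gpnmb and Msr1 the knockout library lay next to wild type replicate 2 and below the remaining wild type libraries. Marco, a scavenger receptor of marginal zone and alveolar macrophages, was at 0.02 FPKM against 0.09, 0.13 and 0.29 FPKM and was not tested.

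Both Fc receptors of the list lay below every wild type library, as 31.2% of all tested genes did. The adaptors Fcer1g and Tyrobp did not. Fcgr3, the low affinity receptor for IgG (ENSMUSG00000059498; chromosome 1, 171051174 to 171064935, minus strand), was at 34.7 FPKM against 52.0, 35.3 and 48.1 FPKM. Wild type replicate 2 was almost at the knockout level and the remaining 2 were well above it. The difference was -0.35 (SE 0.24, limma adjusted p = 0.663), and it ranged from -0.52 to -0.24 as each wild type library was left out. Fcgr1, the high affinity receptor (ENSMUSG00000015947; chromosome 3, 96282909 to 96293969, minus strand), was at 8.13 FPKM against 12.1, 8.95 and 9.41 FPKM, a difference of -0.28 (SE 0.19, limma adjusted p = 0.656) that was -0.16 with replicate 1 left out. Fcer1g encodes a small adaptor that carries the signal of Fc receptors, and Tyrobp one that carries the signal of TREM2. Fcer1g was at 48.7 FPKM against 57.6, 39.0 and 53.0 FPKM, and Tyrobp at 78.7 FPKM against 104, 68.0 and 89.7 FPKM, both inside the wild type range. Fcgr3 resembles Fcgr2b and Fcgr4 in sequence, so reads may have been shared among them. Fcgr4 was at 11.2 FPKM against 16.1, 11.5 and 13.6 FPKM, and Fcgr2b at 19.6 FPKM against 21.4, 17.0 and 22.7 FPKM, inside its wild type range.

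Sequences before a RefSeq start of these receptors are shown because both genes lay low in the knockout library and both sequences hold a match to the core of the PU.1 motif. The windows are the 250 bases before each RefSeq start (build GRCm38.p6), written in the direction of the gene, with the letters GAGGAA or, on the opposite strand, TTCCTC in capitals. Fcgr1 lies at chr3:96293970-96294219 on the minus strand. For Fcgr3 only the last 30 bases are given, chr1:171059404-171059433 on the minus strand. That start is 1 of several, and the window lies inside the gene as annotated, with 27 of its 250 bases in annotated exons. Trem2 (chr17:48346151-48346400, plus strand) is set beside them as the third listed gene that holds the stretch they share.
Fcgr1: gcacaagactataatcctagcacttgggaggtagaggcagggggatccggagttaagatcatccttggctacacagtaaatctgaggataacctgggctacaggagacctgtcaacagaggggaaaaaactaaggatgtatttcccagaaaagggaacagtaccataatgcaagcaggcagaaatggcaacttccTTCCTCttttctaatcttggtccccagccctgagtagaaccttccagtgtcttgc
Fcgr3: ggttaagcaagagagtccatttccTTCCTC
Trem2: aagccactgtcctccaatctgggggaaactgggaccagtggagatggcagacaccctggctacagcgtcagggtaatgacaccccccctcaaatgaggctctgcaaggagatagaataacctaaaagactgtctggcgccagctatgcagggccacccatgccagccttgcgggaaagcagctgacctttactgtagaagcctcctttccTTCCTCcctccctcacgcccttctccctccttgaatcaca

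The match begins 55 bases before the start in Fcgr1, 6 bases before it in Fcgr3 and 40 bases before it in Trem2. The longest run of letters common to the windows of Fcgr1 and Fcgr3 is TTCCTTCCTC, which overlaps the motif and was picked out after the sequences were seen. It occurs on either strand in 0.377% of the 27025 windows of all genes. Of the 34 listed genes, 26 had a window, and 12 of the 26 held GAGGAA on either strand, against 23.1% of all windows. Among the 12 were also Itgam, Mrc1, Cd68, Ctss and Clec7a, whose knockout values lay inside the wild type range. No match lies in the windows of Lgmn and Cd163, which, like Lgals3, lay below every wild type library. The windows of Cx3cr1, Ccr2 and Lgals3 hold no such letters, which says nothing of sites elsewhere. Annotated exons cover 250, 233 and 47 of their 250 bases. The windows of Cx3cr1 and Lgals3 lie inside the gene as annotated. They are thus not plain upstream sequence to set against that of the Fc receptors.

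Of the 7 monocyte and inflammatory genes, Ccr2 and Chil3 lay above every wild type library, a share near the 28% of all tested genes. Ccr2 (ENSMUSG00000049103; chromosome 9, 124101950 to 124113557, plus strand), the receptor by which monocytes leave the marrow and enter tissue, was at 24.7 FPKM against 20.4, 13.7 and 14.2 FPKM. It was 1.54 times the wild type mean of 16.1 ± 3.74 FPKM (SD, n = 3). The difference was 0.61 (SE 0.25, interval -0.06 to 1.28, limma unadjusted p = 0.0648, adjusted p = 0.496). With replicate 1 left out it was 0.79 (unadjusted p = 0.0023, adjusted p = 0.221 by limma), with replicate 2 left out 0.51 (unadjusted p = 0.1328) and with replicate 3 left out 0.54 (unadjusted p = 0.1585), and 0 of these passed the adjusted threshold. Chil3, a chitinase-like protein of monocytes and neutrophils, was at 1.11 FPKM against 1.06, 0.17 and 0.23 FPKM, so the knockout library stood with wild type replicate 1.

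Arg1 showed the widest wild type scatter of the list. This arginine-degrading enzyme of alternatively activated macrophages was at 3.44 FPKM against 43.7, 1.57 and 18.6 FPKM, a 27.8-fold range among wild type libraries alone. The wild type mean was 6.18 times the knockout value, and the difference of -1.56 had an interval from -6.06 to 2.94 (limma adjusted p = 0.769). With wild type replicate 1 left out it was -0.68, and with replicate 2 left out -2.74. Cd86, a costimulatory protein, was the steadiest, at 4.48 FPKM against 4.45, 4.58 and 4.68 FPKM, with a difference of -0.02 (interval -0.27 to 0.22). The remaining genes of this group lay inside the wild type range. Cd14, the endotoxin co-receptor, which injured tubules also make, was at 41.3 FPKM against 54.0, 40.3 and 38.1 FPKM. Clec7a, the fungal glucan receptor dectin-1, was at 20.9 FPKM against 21.8, 12.5 and 19.9 FPKM. Itgax, the integrin chain CD11c of dendritic cells and some macrophages, was at 10.04 FPKM against 12.3, 8.96 and 9.12 FPKM.

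**Figure D2:**
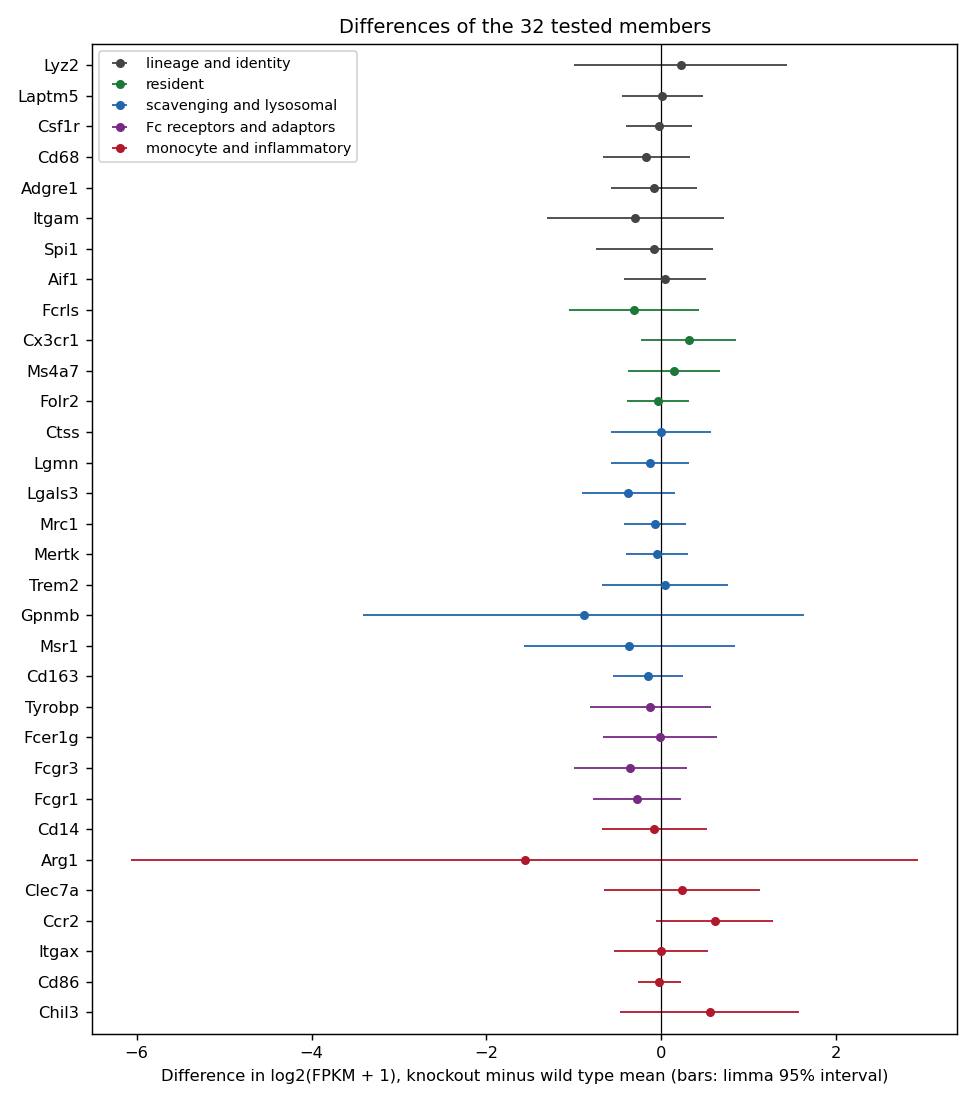
Difference in log2(FPKM + 1) of each of the 32 tested genes, the knockout library minus the wild type mean, with limma's 95% interval as a bar. Every interval crosses 0, and they reach 0.24 to either side for Cd86 and 4.50 for Arg1.

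Precision differed widely among the genes. The 95% interval reached a median of 0.56 to either side, and for 22 of the 32 genes the whole interval lay between -1 and 1. The widest belonged to Arg1 and Gpnmb, and the narrowest to Cd86.

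The resident, scavenging and inflammatory genes were then set side by side. Median differences were 0.06 for the resident genes, -0.13 for the scavenging and lysosomal genes, -0.20 for the Fc receptors and adaptors, 0.00 for the monocyte and inflammatory genes and -0.05 for lineage and identity. Each of these medians lay inside the span of the single wild type libraries around their own mean, which was -0.11 to 0.24 for the resident genes, -0.17 to 0.16 for scavenging and -0.20 to 0.30 for the inflammatory genes. That was so for the deposited values. For scavenging the knockout median left the wild type span under 2 scalings, at -0.20 against -0.18 to 0.21 with the same FPKM total and at -0.26 against -0.18 to 0.14 with quantile normalization, while the other 4 roles stayed inside under both. Within roles, the members went different ways, as with Cx3cr1 and Fcrls among the resident genes and with Ccr2 and Arg1 in the monocyte and inflammatory role. That role is mixed, because it also holds Arg1 of alternatively activated macrophages and Itgax of dendritic cells. Its median thus does not stand for inflammation alone. Scaling the libraries to the same FPKM total moved the median of all tested genes to -0.11 and that of the 32 genes to -0.18. It gave medians of -0.04 for the resident genes, -0.12 for the inflammatory genes, -0.18 for lineage and identity and -0.33 for the Fc receptors and adaptors. With wild type replicate 1 left out, lineage and identity had a median of 0.05 and the Fc receptors and adaptors -0.07. The sign of the resident, inflammatory and lineage medians thus depended on the scaling or on a single library.

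**Figure D3:**
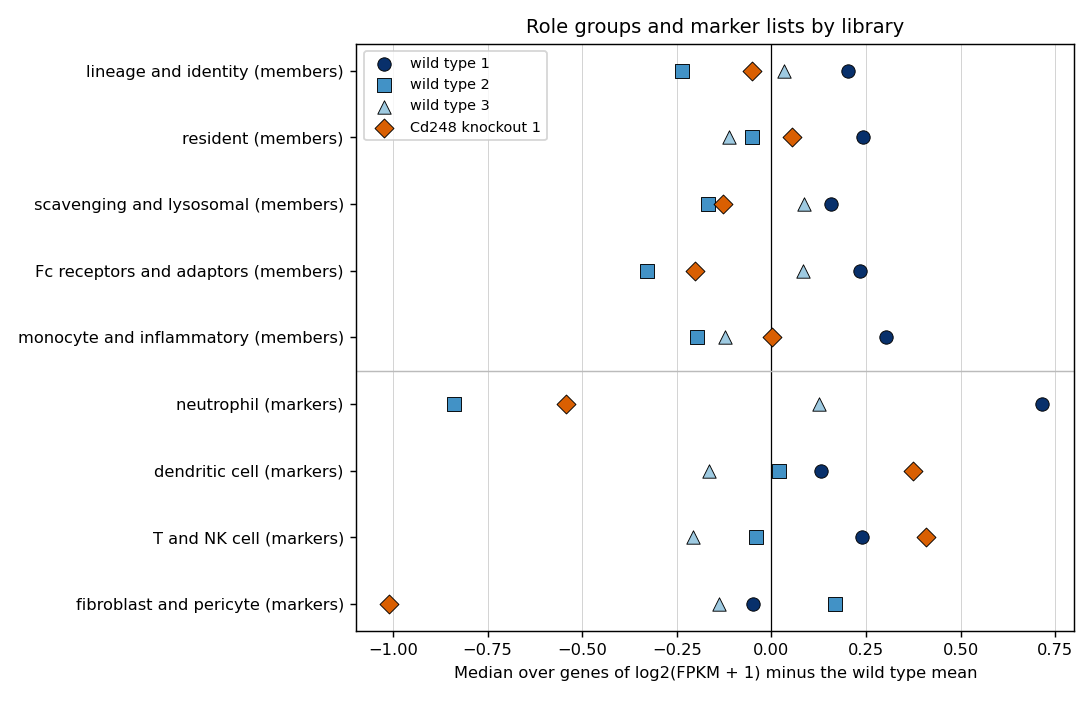
Median over the tested genes of log2(FPKM + 1) minus the wild type mean, for the 5 roles (above the line) and 4 lists of markers of other cells (below it), with 1 symbol per library. On these deposited values the knockout library lies within the wild type span for each role and for neutrophils (for scavenging not under 2 other scalings), and outside it for the other 3 marker lists.

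The wild type libraries themselves differed in these genes in a common direction. Wild type replicate 1 was the highest of the 3 for 24 of 32 genes, where it was highest for 47.4% of all tested genes. Wild type replicate 2 was the lowest for 26 of 32, against 27.0% of all tested genes. The order replicate 1, then 3, then 2 was found in 21 of the 32 genes and in 17.8% of all tested genes. The median SD among wild type libraries was 0.24 on the log2 scale for the listed genes and 0.11 for all tested genes, and 29 of 32 exceeded the latter. For 25 of 32 genes the knockout library lay closer to the wild type mean than 1 wild type SD, as it did for 41.8% of all tested genes. The genes share cells, libraries and scaling, so these counts describe the 4 libraries and are not independent observations.

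The place of the knockout library depended on which wild type libraries were compared. Without replicate 2, the library low in these genes, 18 of 32 knockout values lay below both remaining wild type libraries. The median difference was -0.13, against -0.01 for all tested genes. Without replicate 1, 10 lay above both and 6 below, and the median was 0.01, as it was for all tested genes. Any gene falls outside the wild type range more readily when fewer wild type libraries set it. The shares of all tested genes without a replicate were not computed, so these counts cannot be called particular to the listed genes. At an unadjusted p under 0.05, limma then found Ccr2, Cx3cr1 and Chil3 without replicate 1, and Arg1, Msr1 and Fcgr3 without replicate 2, and 0 genes passed after adjustment in either case.

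Markers of other cells were read in the same libraries. For comparison, 28% of all tested genes lay above every wild type library, 31.2% below and 40.8% inside the range. B and plasma cell markers moved most, with 9 of 9 above every wild type library, 6 called higher by limma, a median difference of 1.88 and a summed level of 4568 FPKM against 118 to 187 FPKM. Of 7 tested neutrophil markers, all 7 lay inside the wild type range, with a median difference of -0.54, and all 7 had the wild type order 1, 3, 2. Their summed level over 10 markers was 34.4 FPKM in the knockout library and 99.6, 18.5 and 55.5 FPKM in wild type. The 3 untested markers lay above every wild type library, with Ngp at 1.13 FPKM against 0.04, 0.04 and 0 FPKM, Camp at 0.53 FPKM against 0, 0.22 and 0 FPKM and Ly6g at 0.17 FPKM against 0, 0 and 0.10 FPKM. Itgam, Fcer1g, Tyrobp and Arg1 followed that order as well, but so did Csf1r, Adgre1 and Mrc1. It was the order of 21 of the 32 listed genes and of 17.8% of all tested genes. Neutrophils express several of the listed genes, and their part in the scatter was not tested. Of 9 tested dendritic cell markers, 7 lay above every wild type library, with a median difference of 0.37 and 0 calls by limma (1 at an unadjusted p under 0.05). Their summed level was 1538 FPKM against 1083 to 1329 FPKM, and 0 of 10 were at 0 in any library. Nearly all of the knockout sum came from H2-Ab1, H2-Aa and Cd74, at 318, 216 and 983 FPKM. The sum thus says little of the other markers, of which Zbtb46 had a negative difference of -0.15. Ccr2, Cx3cr1 and Itgax are also made by dendritic cells and, for the chemokine receptors, by T and NK cells, whose markers had a median difference of 0.41 with 7 of 8 above every wild type library and a summed level of 39.6 FPKM against 23.6 to 33.7 FPKM. What these cells contributed to Ccr2 and Cx3cr1 was not tested. Fibroblast and pericyte markers went the other way, with a median of -1.01, 7 of 8 below every wild type library and 2 called lower by limma.

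Levels were also divided by that of Adgre1 in the same library, for 31 genes. The ratio of Ccr2 to Adgre1 was 0.965 against 0.653, 0.591 and 0.507. That of Cx3cr1 was 0.716 against 0.569, 0.594 and 0.453, and that of Ms4a7 was 0.337 against 0.291, 0.277 and 0.279. All 3 ratios were highest in the knockout library, as were those of Csf1r, Aif1, Laptm5, Ctss, Fcer1g, Clec7a and Chil3. The ratio of Fcgr3 was 1.35 against 1.67, 1.53 and 1.72, that of Fcgr1 was 0.317 against 0.388, 0.387 and 0.337, and that of Lgals3 was 1.84 against 2.36, 2.36 and 2.06. These were lowest in the knockout library, as was that of Cd68. Mrc1, at 0.745 against 0.723, 0.820 and 0.681, stayed inside the wild type range. The ratios named were chosen after their values were seen. Ratios to Adgre1 were computed for the listed genes only, so no share of all genes can be set beside these positions. An exact two-sided permutation test over the 4 libraries gave p = 0.25 for Ccr2, Ms4a7, Fcgr3, Fcgr1 and Lgals3, which is the smallest p that 1 library against 3 allows, and p = 0.50 for Cx3cr1. Adjusted over the 31 ratios (Benjamini-Hochberg), each of these p was 1.0.

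**Figure D4:**
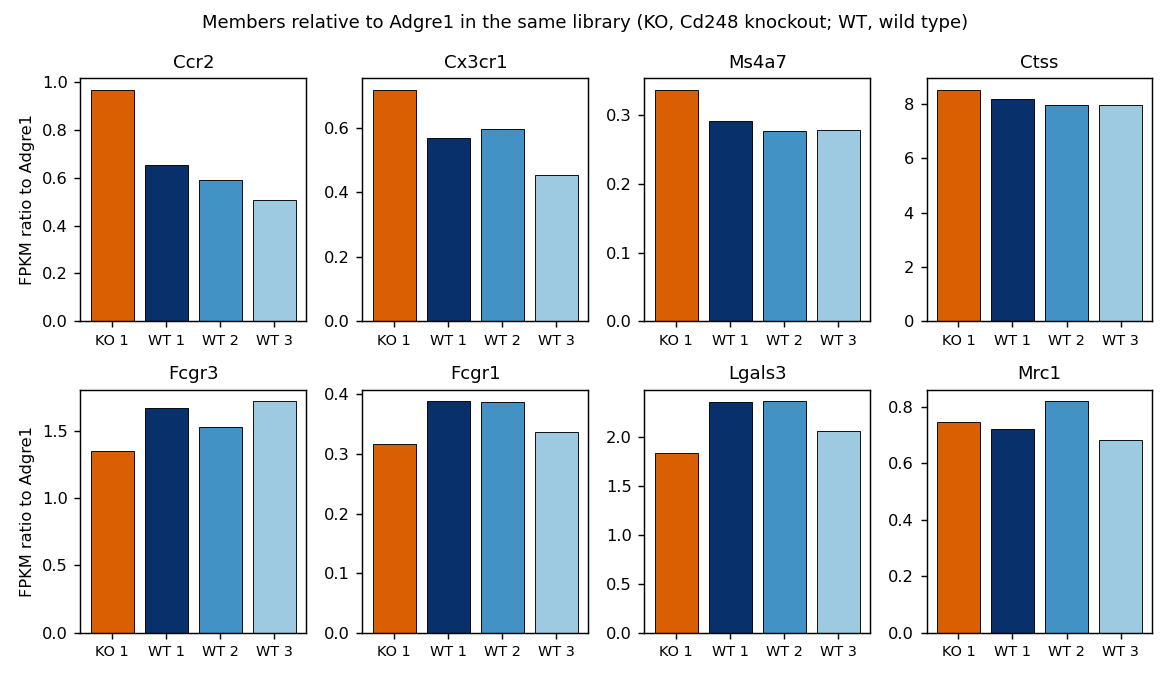
FPKM of 8 genes divided by the FPKM of Adgre1 in the same library, 1 bar per library (orange, knockout; blues, wild type replicates 1 to 3). Ccr2, Cx3cr1, Ms4a7 and Ctss have their highest bar in the knockout library, Fcgr3, Fcgr1 and Lgals3 their lowest, and Mrc1 lies between the wild type bars.

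Other genes of macrophage biology, 96 in 9 lists, gave 1 call among 89 tested, where 0.723% of all tested genes were called. It was Ly6c2, a surface protein of inflammatory monocytes that plasma cells and T cells also carry, which rose by 1.28 on the log2 scale (7.44 FPKM against 2.52, 2.56 and 2.35 FPKM, limma adjusted p = 0.0275), and 0 were lower. The B and plasma cell markers were high in the same library, with 9 of 9 above every wild type library, and their part in Ly6c2 was not tested. At an unadjusted p under 0.05 there were 15 of 89, with 13 lower and 2 higher, against 10.8% of all tested genes in either direction. Ly6c2 has close copies in its gene family, so reads may have been shared among them. The median difference of the 89 was -0.05. Of the 9 tested monocyte genes, 7 had negative differences and 5 lay below every wild type library, where 31.2% of all tested genes did. Nr4a1, a nuclear receptor of patrolling monocytes that many stressed cells induce, was at 2.74 FPKM against 10.97, 16.9 and 7.78 FPKM. Plac8, named after its value was seen, was at 29.0 FPKM against 45.7, 43.8 and 48.3 FPKM, and Vcan, a matrix proteoglycan that fibroblasts make too, at 1.17 FPKM against 3.55, 4.46 and 4.36 FPKM. Ace, an enzyme of patrolling monocytes and of kidney tubules, also named after its value was seen, had a positive difference of 0.33 and lay inside the wild type range.

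Ligands of the listed receptors were mixed. Of 7 tested, 0 passed limma's test at the adjusted or the unadjusted threshold. Above every wild type library lay 4 and below it 2, against 28% and 31.2% of all tested genes. Ccl2, the main ligand of CCR2, was at 22.3 FPKM against 21.8, 10.4 and 11.4 FPKM, so the knockout library stood with wild type replicate 1. Ccl8, a related chemokine, was at 24.1 FPKM against 18.7, 14.4 and 9.42 FPKM. Cx3cl1, the ligand of CX3CR1, was below every wild type library while its receptor was above, at 48.2 FPKM against 62.6, 75.1 and 58.1 FPKM (difference -0.42, limma adjusted p = 0.494).

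Partners and other receptors of scavenging had a median difference of -0.37. Of 10 tested, 8 lay below every wild type library, against 31.2% of all tested genes. By limma, 6 had an unadjusted p under 0.05 with negative differences, against 10.8% of all tested genes in either direction. After adjustment 0 passed. Lrp1, an endocytic receptor that fibroblasts also carry, was at 14.3 FPKM against 24.3, 24.8 and 20.0 FPKM, and Colec12, a scavenger receptor of stromal and endothelial cells, at 12.1 FPKM against 17.3, 19.7 and 16.6 FPKM. Endothelial markers lay below every wild type library in 7 of 7 cases and the fibroblast markers in 7 of 8, and what they contributed to this list was not tested. Cd36, a fatty acid receptor that tubule and endothelial cells share, was at 39.3 FPKM against 14.3, 22.5 and 29.6 FPKM. Proximal tubule markers summed to 3648 FPKM against 1065, 2949 and 4511 FPKM, and their part in Cd36 was not tested.

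Signalling genes under the Fc receptors and TREM2 stayed close to wild type, with 11 of 14 inside the range, against 40.8% of all tested genes. Their median difference was -0.04, and 0 were past limma's test at either threshold. Trem1, an amplifier of inflammation on neutrophils and monocytes, was at 0.59 FPKM against 2.71, 0.71 and 1.51 FPKM. Resident genes outside the list gave 0 calls at either threshold among 6 tested, and the complement gene C1qa, named after its value was seen, was at 173 FPKM against 188, 145 and 171 FPKM. Lysosomal and lipid-associated genes had a median of -0.10, and 1 of 15 (Ctsk, a collagen-degrading cathepsin) had an unadjusted p under 0.05, at 22.5 FPKM against 29.2, 29.7 and 29.2 FPKM. Fabp5, a fatty acid carrier, had the largest difference outside the wild type range (-0.70), at 3.16 FPKM against 7.01, 3.78 and 7.03 FPKM.

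Inflammatory effectors and genes of alternative activation included no call. Of 10 effectors, 4 lay below every wild type library and 1 above, against 31.2% and 28% of all tested genes. Il1b, the cytokine interleukin-1 beta, was at 6.51 FPKM against 20.7, 13.1 and 9.64 FPKM, and Ptgs2, the inducible prostaglandin synthase, at 0.44 FPKM against 4.58, 2.62 and 1.5 FPKM (difference -1.36, limma unadjusted p = 0.0398, adjusted p = 0.442). Il18, the cytokine interleukin-18, lay above every wild type library at 3.37 FPKM against 2.56, 2.24 and 2.42 FPKM (difference 0.36, limma unadjusted p = 0.0283, adjusted p = 0.412). Of 8 genes of alternative activation, 0 reached an unadjusted p under 0.05, and 6 had positive differences, with a median of 0.08. Ccl22, a chemokine for regulatory T cells, was at 4.62 FPKM against 4.19, 2.59 and 2.26 FPKM, above every wild type library. Il4ra, the interleukin-4 receptor, was at 10.6 FPKM against 19.0, 13.6 and 13.1 FPKM. Of 10 transcription factors 6 lay inside the wild type range, and Cebpb, a factor of the acute inflammatory response, was at 20.9 FPKM against 39.3, 32.7 and 29.1 FPKM (unadjusted p = 0.0208, adjusted p = 0.376 by limma).

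The authors' deposited table marks 0 of the 34 genes as significant, and 1.4% of the genes tested here. In the authors' deposited table, Ccr2 has a fold change of 1.54 with a q-value of 0.13, and Arg1 has a fold change of 0.16 with a p-value of 0.03 and a q-value of 0.47. The p-value of Ccr2 there is lower than that of Arg1. By limma, neither gene reached an unadjusted p under 0.05, and the authors' test is not named.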

How the data were processed

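Messenger RNA of obstructed mouse kidneys was sequenced after Trizol extraction and oligo(dT) purification, per the labels' protocols. The submitters' processing notes list cutadapt 1.9, FastQC and HISAT2 2.0.4, and the build mm10, without their roles. For the program behind the FPKM values, the sources used here give no name. FPKM values were deposited for each gene, rounded to 2 decimals. The authors' deposited table also holds a fold change, the ratio of the knockout value to the wild type mean, its log2, and a p-value and q-value from a test that is not named. Groups and replicates were taken from the sample titles, while the other knockout replicates were not analysed here. No batch is named in the labels.

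Values were transformed to log2(FPKM + 1), and genes averaging 0.5 FPKM or more were fitted with limma 3.58.1 in R 4.3.3 (mean-variance trend, two-sided, Benjamini-Hochberg adjustment over 16871 genes, threshold 0.05). With 1 knockout library, the spread came from the wild type libraries (2 residual and 2.32 prior degrees of freedom), and the knockout library was assumed to vary like them. This scale understates changes of low genes. The fit was tested on simulated data. Coordinates and overlaps came from GENCODE M21. The listed genes, their roles and the other lists were chosen with earlier results of these data known. Beyond the listed genes, at most the 3 largest differences per list were eligible to be named, among genes averaging 1 FPKM or more and outside the wild type range, with any that passed, and others are stated as chosen after their values were seen. The alternatives tried were a pseudocount of 0.1 FPKM, other filters, 3 scalings, no trend, no immunoglobulin genes and each wild type library left out.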

Additional observations from a re-analysis of the deposited data

How the results depend on the processing

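Under each of the 11 alternatives run, 0 of the listed genes passed limma's adjusted threshold, and the lowest adjusted p was 0.2209 (Ccr2 without wild type replicate 1). No paired analysis was possible because only 1 knockout library had values, and for the same reason no knockout replicate could be left out. Of 349 differences of listed genes recomputed, 323 kept their sign and 26 changed it, in 13 genes whose difference was at most 0.22 in size. Below and above every wild type library lay 5 and 3 genes, and 11 and 1 with the same FPKM total. They were 8 and 1 with the same FPKM total without immunoglobulin genes, and 9 lay below with quantile normalization. The median of all tested genes moved too, to -0.113, -0.045 and -0.032 under these scalings in turn. Shares of all tested genes under the scalings, or with a wild type library left out, were not computed. Such counts therefore cannot be called particular to the listed genes. With the same FPKM total the difference was -0.0823 for Aif1, -0.1192 for Laptm5, -0.0641 for Trem2 and -0.1204 for Itgax. Summed without immunoglobulin genes it was -0.0035 for Aif1, -0.0346 for Laptm5 and -0.0418 for Itgax, and with quantile normalization -0.0837 for Laptm5. Leaving out each wild type library in turn put 11 to 21 genes outside the range, 6 to 18 below it, 3 to 10 above it, and 0 to 3 at an unadjusted p under 0.05. The differences then ranged as follows, with a change of sign in each: Spi1 -0.2377 to 0.0611, Csf1r -0.1029 to 0.0379, Adgre1 -0.1977 to 0.0109, Lyz2 -0.0818 to 0.4451, Aif1 -0.0454 to 0.1480, Laptm5 -0.0653 to 0.1219, Mrc1 -0.1131 to 0.0068, Trem2 -0.1422 to 0.1464, Ctss -0.1276 to 0.1054, Fcer1g -0.1774 to 0.0983, Tyrobp -0.2901 to 0.0120, Cd14 -0.1725 to 0.0745 and Itgax -0.0705 to 0.1370. Without a change of sign, but by over 1.5 times, moved Itgam -0.52 to -0.05, Cd68 -0.29 to -0.09, Fcrls -0.47 to -0.14, Ms4a7 0.03 to 0.26, Msr1 -0.67 to -0.13, Mertk -0.13 to -0.01, Gpnmb -1.49 to -0.31, Lgmn -0.18 to -0.03, Lgals3 -0.46 to -0.25, Fcgr1 -0.36 to -0.16, Clec7a 0.01 to 0.39 and Arg1 -2.74 to -0.68, beside Folr2 and Cd86 with differences near 0. Read depth is unknown, so counting error cannot be given, and precision rests on the 3 wild type libraries. The cause of these changes was not tested.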
